A study of Mus musculus with 8 samples.

Results

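Calprotectin and neutrophil granule genes were followed here in mouse liver: S100a8 and S100a9, the granule genes Ngp, Camp, Mmp8 and Mmp9, the secreted protein gene Retnlg, and the receptor genes Csf3r, Cxcr2 and Fpr1. Members were the probes whose gene name in the array files was one of these 10 symbols (Cxcr2 is written Il8rb there), 10 genes of 28478 on the arrays. They had been chosen with the difference between genotypes already known, so that difference is described below without a test. Liver RNA came from AIM-/- mice, which lack the macrophage-derived protein encoded by Cd5l, and from wild-type AIM+/+ mice, all on strain background C57Bl/6. AIM-/- mice were kept on normal chow, the 0-week point, or fed a high-fat diet (HFD) for 6, 12 or 20 weeks, and AIM+/+ mice had the same 4 conditions. Each combination was 1 one-colour array, 8 in all, and the labels used here give no age, sex or number of animals behind an array.

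The arrays can be read with these limits. The scanner software marked 18585 to 21118 of the 41174 probes on an array as well above background, and no spot was saturated. Cd5l read between 90.7 and 171 on AIM-/- arrays and between 10544 and 30201 on AIM+/+ arrays, a knockout minus wild type difference of −7.35 ± 0.12 (SE) in scaled log2 signal (log2 signal minus the array's 75th percentile; limma, adjusted p = 0.000332). The hepatocyte gene Alb read 350489 or more on every array. Of the neutrophil markers beside the members, Elane, Cd177, Itgam, Il1r2 and Trem1 were not well above background on any array. All AIM-/- arrays lay on 1 slide and all AIM+/+ arrays on another, so genotype and slide cannot be told apart. Both 20-week arrays carried Xist (892 in AIM-/- and 903 in AIM+/+) with Ddx3y not above background, whereas the other 6 arrays carried Ddx3y between 866 and 1679, so 20 weeks and the sex of the animals cannot be told apart. Xist was also above background on the AIM-/- 6-week array (165) and the AIM+/+ 12-week array (66.1).

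S100a8 and S100a9 are small calcium-binding proteins that pair to form calprotectin, a major protein of the neutrophil cytosol that binds zinc and manganese and is also made by monocytes. Granule proteins are made while neutrophils mature in the bone marrow and are packed for release, while receptors for granulocyte colony-stimulating factor, chemokines and formyl peptides govern the growth and migration of the cells. In bulk liver, fewer cells of a type and less RNA per cell cannot be told apart. S100a8 and S100a9 lie on chromosome 3 in a cluster of S100 genes, 3.3 and 3.32 Mb from the Cd5l probe in the array files' mm8 coordinates, and the remaining 8 genes lie on other chromosomes. The S100a8 probe maps to chr3:90755783-90755842 and the S100a9 probe to chr3:90778590-90778649. The Csf3r probe maps to chr4:125546354-125546413, the Fpr1 probe to chr17:17581263-17581322 and the Retnlg probe to chr16:48793981-48794040. Whether these probes lie in exons or UTRs was not annotated here.

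The promoters of the 4 members measured on every array are shown so that the calprotectin pair can be read beside the receptor genes on other chromosomes. The RefSeq table (GRCm38.p6) held a promoter for 9 of the 10 members, each running 250 bases before to 50 bases after the annotated start. Sequences read 5′ to 3′ on the gene's strand. Capitals mark matches, on either strand, to a TATA box (TATAAA), the C/EBP core patterns TTNNGNAA and TGNNGNAA, and the PU.1 core GAGGAA. C/EBP and PU.1 are transcription factor families of myeloid cells.
S100a8, chr3:90668821-90669120, plus strand: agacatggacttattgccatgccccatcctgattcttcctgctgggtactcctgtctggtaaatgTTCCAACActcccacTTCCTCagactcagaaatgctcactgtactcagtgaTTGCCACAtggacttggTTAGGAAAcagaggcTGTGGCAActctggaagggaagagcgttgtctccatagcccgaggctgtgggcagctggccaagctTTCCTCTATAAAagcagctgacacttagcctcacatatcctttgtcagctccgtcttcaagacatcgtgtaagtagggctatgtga
S100a9, chr3:90695672-90695971, minus strand: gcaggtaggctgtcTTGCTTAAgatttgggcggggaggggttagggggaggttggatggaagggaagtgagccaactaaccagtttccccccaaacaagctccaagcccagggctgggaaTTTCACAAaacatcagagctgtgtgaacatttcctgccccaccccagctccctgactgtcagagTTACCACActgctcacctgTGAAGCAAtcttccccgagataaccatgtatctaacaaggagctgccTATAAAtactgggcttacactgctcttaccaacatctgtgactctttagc
Csf3r, chr4:126024409-126024708, plus strand: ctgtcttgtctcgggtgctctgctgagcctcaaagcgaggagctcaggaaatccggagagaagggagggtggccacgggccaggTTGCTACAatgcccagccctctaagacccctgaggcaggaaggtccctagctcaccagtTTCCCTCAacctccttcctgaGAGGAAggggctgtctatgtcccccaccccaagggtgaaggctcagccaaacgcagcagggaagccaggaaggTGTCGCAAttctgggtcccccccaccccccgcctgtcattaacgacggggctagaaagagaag
Fpr1, chr17:17883890-17884189, minus strand: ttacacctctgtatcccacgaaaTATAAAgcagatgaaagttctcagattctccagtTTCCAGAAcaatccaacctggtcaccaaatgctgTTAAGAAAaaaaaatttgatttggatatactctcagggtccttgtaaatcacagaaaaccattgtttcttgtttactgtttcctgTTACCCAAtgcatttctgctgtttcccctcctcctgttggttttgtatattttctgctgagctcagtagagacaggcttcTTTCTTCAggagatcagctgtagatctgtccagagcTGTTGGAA

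S100a8 held TATAAA 30 bases before its annotated start, directly after 1 of 2 GAGGAA matches, with 1 TTNNGNAA and 3 TGNNGNAA matches. S100a9 held TATAAA at the annotated start itself, 2 TTNNGNAA and 2 TGNNGNAA matches, and no GAGGAA in this window. Csf3r held 3 TGNNGNAA and 1 GAGGAA match and neither of the other 2 motifs. Fpr1 held TATAAA 227 bases before the start, 3 TTNNGNAA and 2 TGNNGNAA matches, and no GAGGAA. No match overlapped another in these windows. Among all 32851 promoters of the table, 13.6% held TATAAA, 40.7% TTNNGNAA, 46.5% TGNNGNAA and 28.3% GAGGAA, so the C/EBP letters are common in any promoter of this length.

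Both calprotectin genes were well above background on all 8 arrays. The S100a9 signal at 0, 6, 12 and 20 weeks was 526, 846, 1406 and 1835 in AIM-/- livers, against 1433, 1868, 2171 and 4554 in AIM+/+ livers. The knockout value was the lower at every week, and the highest knockout array (20 weeks, 2.47 on the scaled log2 scale) lay just under the lowest wild-type array (chow, 2.50). S100a8 read 65.8, 50.9, 111 and 122 in AIM-/- livers and 106, 126, 170 and 335 in AIM+/+ livers. It was again lower in the knockout at every week, without overlap between the genotypes after scaling (highest knockout −1.34, lowest wild type −1.26). Before scaling, the genotypes overlapped for both genes: the AIM-/- 20-week array read above the AIM+/+ chow array. The highest array of both genes was the AIM+/+ 20-week array. That array is also the highest for 10.2% of all genes compared.

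The receptors for growth factor and formyl peptides were measured on all 8 arrays too, over a narrower range of signals across arrays. Csf3r, the receptor through which granulocyte colony-stimulating factor drives neutrophil production, read 40.1, 41.4, 43.0 and 54.1 in AIM-/- livers, against 41.2, 43.5, 47.3 and 61.7 in AIM+/+ livers. Each knockout value was the lower of its week, but the ranges of the genotypes overlapped. Fpr1, which senses formylated bacterial and mitochondrial peptides, read 319, 330, 437 and 450 in AIM-/- livers and 289, 382, 392 and 610 in AIM+/+ livers. The unscaled knockout signal of Fpr1 was the higher at 0 and 12 weeks and the lower at 6 and 20 weeks. Cxcr2, the receptor for neutrophil-attracting CXC chemokines, did not reach the above-background mark with either of its 2 probes, and its highest signal was 23.6, on the AIM-/- chow array.

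Granule genes were mostly below the reach of the arrays. Camp, which encodes the antimicrobial peptide cathelicidin, read 7.01, 6.31, 24.8 and 20.1 in AIM-/- livers, against 5.14, 5.27, 11.8 and 49.1 in AIM+/+ livers. Only the AIM+/+ 20-week value was well above background, which puts Camp in the AIM-/- 20-week liver at least 2-fold lower. Such a bound sets the measured array against the higher of the dim array's own signal and the lowest signal it had well above background. Ngp, a protein of secondary granules, never carried the above-background mark and read at most 21.1 in AIM-/- livers and 24.7 in AIM+/+ livers. Mmp8, the neutrophil collagenase, was not well above background either, with its highest signal, 27.9, on the AIM+/+ 20-week array against 9.5 on the AIM-/- array of that week. Mmp9, the gelatinase B of neutrophils and macrophages, was likewise dim with both of its probes. Of the 10 spots of 1 Mmp9 probe, single spots read 34.6 on the AIM-/- 20-week array and 192 on the AIM+/+ 12-week array, both with the scanner's outlier mark, and were left out.

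Retnlg, a resistin-like protein made by neutrophils and bone marrow, was well above background on 1 AIM-/- and 2 AIM+/+ arrays. Its signal was 15.3, 22.3, 45.8 and 20.1 in AIM-/- livers, against 22.9, 10.4, 34.8 and 77.9 in AIM+/+ livers. The values above background were those at 12 weeks in both genotypes and at 20 weeks in AIM+/+. At 20 weeks Retnlg was at least 3.17-fold lower in the AIM-/- liver. Thus 5 of the 10 genes (S100a8, S100a9, Csf3r, Fpr1 and Retnlg) were above background on 2 or more arrays and entered the fits over 15342 genes, and the other 5 did not.

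**Figure D1:**
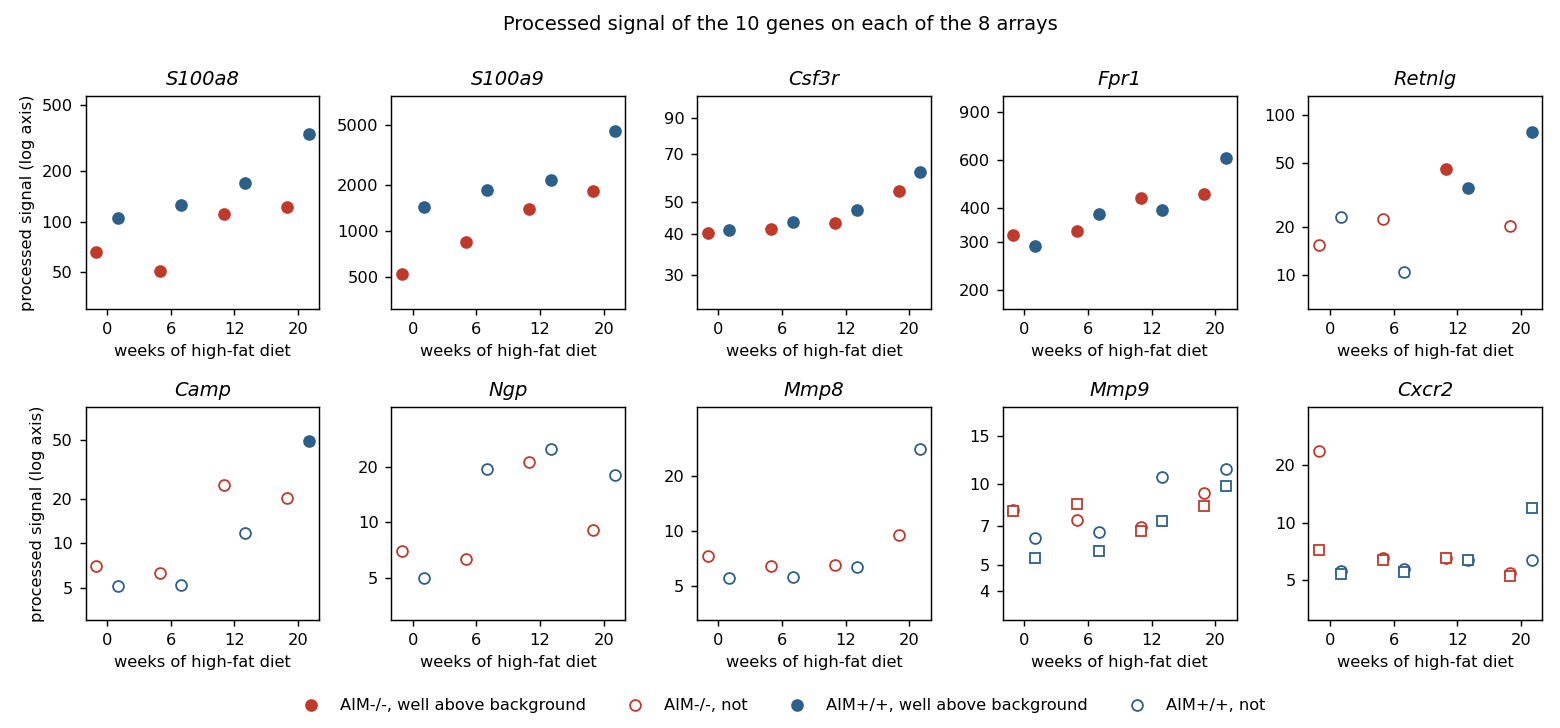
Processed signal (arbitrary units, log axis) of the 10 genes against weeks of high-fat diet, 1 panel per gene, with AIM-/- arrays in red left of AIM+/+ arrays in blue. Filled symbols are well above background, and circles and squares tell the 2 probes of Mmp9 and Cxcr2 apart. S100a8 and S100a9 are lower in AIM-/- at every week, while most symbols of Camp, Ngp, Mmp8, Mmp9 and Cxcr2 are open.

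Between genotypes, the calprotectin genes had the most negative differences of the 5 fitted members over the weeks, and the distance from the other 3 was not tested. The knockout minus wild type difference over the 4 weeks was −1.28 ± 0.19 for S100a9 and −1.16 ± 0.22 for S100a8 on the scaled log2 scale (SE of the fit, n = 4 arrays each). By week, at 0, 6, 12 and 20 weeks, it was −1.60, −1.51, −0.63 and −1.37 for S100a9. For S100a8 it was −0.84, −1.67, −0.61 and −1.52. The difference was smallest at 12 weeks for both genes. A gene at least 2-fold lower in the knockout was found among 4.69%, 3.76%, 2.17% and 2.23% of genes above background at 0, 6, 12 and 20 weeks.

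For the members on other chromosomes the same difference was −0.26 ± 0.10 for Csf3r, −0.24 ± 0.16 for Fpr1 and −0.41 ± 0.49 for Retnlg. Csf3r was lower in the knockout in all 4 weeks (−0.19, −0.44, −0.15 and −0.25). Its unscaled signals differed little on chow (40.1 in AIM-/- and 41.2 in AIM+/+) and at 6 weeks (41.4 and 43.5). The 75th percentiles used for scaling were 283.4 and 254.1 on chow and 301.7 and 234.1 at 6 weeks. Part of these differences thus came from the scaling of a dim signal. Fpr1 gave −0.01, −0.58, 0.15 and −0.50, with no steady direction over the weeks. Retnlg gave 0.39 at 12 weeks, the only week with both arrays above background; at 20 weeks it has the bound given above, and at 0 and 6 weeks neither array measured it. Its value over weeks thus rests partly on dim signals, and turned to 0.13 without the 20-week pair. All 5 fitted members were lower in the knockout over weeks, against 49.4% of all genes, and 3 of the 5 were lower in all 4 weeks, against 7.15%. After scaling, every AIM-/- array lay below every AIM+/+ array for 2 of the 5, against 1.62%. Of all genes, 0.0326% passed at an adjusted p of 0.05 for genotype. The members had been chosen on this contrast, so nothing is read from these counts. The median over all genes was 0.002.

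**Figure D2:**
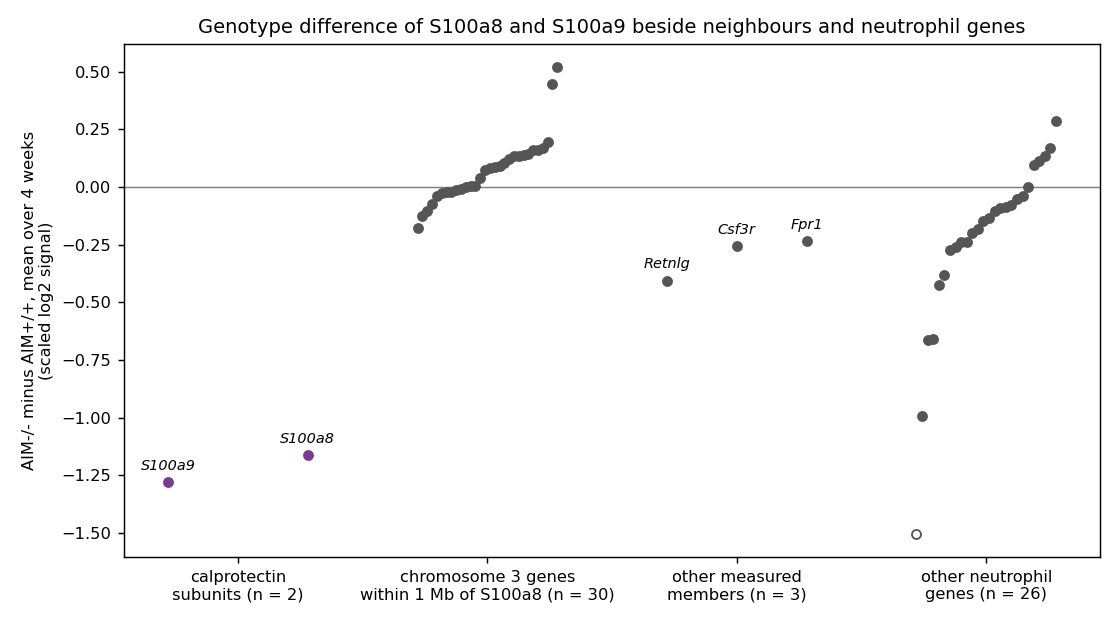
Knockout minus wild type over the 4 weeks (scaled log2 signal, y axis), 1 point per gene without error bars, for S100a9 and S100a8, 30 chromosome 3 genes within 1 Mb of S100a8, the 3 other fitted members and 26 other neutrophil genes, ordered by value within each set. S100a9 (−1.28) and S100a8 (−1.16) lie below all 30 neighbours and below Retnlg, Csf3r and Fpr1, and the open symbol, Mrgpra2b, was above background on no AIM-/- array, so its place has no meaning beyond a bound.

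Among the genes around S100a8 on chromosome 3, none was as much as 2-fold lower in AIM-/- over the weeks. The share of all genes with such a difference over weeks was not counted. In single weeks it was 2.17% to 4.69% of genes above background, so finding none among these genes says little. Of 30 other genes compared within 1 Mb of S100a8, 10 were lower in AIM-/- by any amount, against 49.4% of all genes. Their median was 0.08. The 3 with the largest absolute difference were all higher in the knockout: 4632404H12Rik by 0.52 ± 0.15, Atp8b2 by 0.45 ± 0.18 and the transcript TC1661772 by 0.19 ± 0.11. All 30 lie on the Cd5l side of S100a8, and no gene within 1 Mb beyond S100a9 was compared. Of the 103 genes compared between Cd5l and S100a8, which include these 30, 40 were lower in the knockout, against the same 49.4%. None was at least 2-fold lower, and the median was 0.04. Within the S100 cluster, S100a4 and S100a6, which encode calcium-binding proteins of many motile and fibroblastic cells, differed by 0.01 ± 0.24 and 0.00 ± 0.18. The 8 S100 genes of the chromosome measured beside S100a8 and S100a9, these 2 among them, had a median of 0.05, with 2 of 8 lower in AIM-/-. These values are descriptions, and the difference between calprotectin and its neighbours was not tested.

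Other neutrophil genes, nearly all on other chromosomes (1 of 26, Chil3, lies on chromosome 3), were mostly lower too over weeks, but not at every week. Of 25 above background on at least 1 array of each genotype, 20 were lower in AIM-/- over weeks, against 49.4% of all genes. In all 4 weeks 5 were lower (Ctsg, Lyz1, Hp, Ceacam1 and Il1b), against 7.15% of all genes. The 25 had a median of −0.13 and a range of −0.99 to 0.28. At 0, 6, 12 and 20 weeks, the median of the 14 granule genes was −0.11, −0.29, 0.38 and −0.45. That of the 12 genes of the surface list, which is not limited to surface proteins, was 0.03, −0.08, −0.03 and −0.68. Mrgpra2b, the 26th, was above background on 2 AIM+/+ arrays and no AIM-/- array, so it has only bounds: at least 2.33-fold lower in AIM-/- on chow and at least 1.15-fold lower at 20 weeks. Il1b, the cytokine interleukin 1 beta, differed by −0.99 ± 0.41 and the granule protease gene Ctsg by −0.66 ± 0.13. These 2 and Mrgpra2b were named after their values were seen. Hp and Lyz1 are also made by hepatocytes and macrophages, so the list is not exclusive to neutrophils.

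Macrophage and hepatocyte marker lists were lower too on the same contrast, where 49.4% of all genes were lower, while blood genes were not. The part of other cells in the calprotectin difference was not tested. All 11 Kupffer cell and macrophage genes were lower in AIM-/- over weeks (median −0.18), but not at every week: the list's median was 0.12, −0.39, −0.07 and −0.49 at 0, 6, 12 and 20 weeks. The summed level of that list, as a mean of scaled log2 signals, ran from 1.72 to 2.28 in AIM-/- arrays and from 2.03 to 2.72 in AIM+/+ arrays. Its largest differences were those of Cd163 (−1.20 ± 0.49), Marco (−1.06 ± 0.35), Timd4 (−0.93 ± 0.36) and Vsig4 (−0.60 ± 0.27), receptors of resident macrophages. On chow, with 1 array per genotype, Timd4, Marco, Cd163 and Vsig4 gave 0.17, 0.03, 0.03 and −0.01. S100a9 and S100a8 gave −1.60 and −0.84 on those arrays, and the distance was not tested. The 4 receptor genes were named after their values were seen. Of the monocyte genes, 5 of 8 were lower (median −0.13), not far from the share of all genes. Their list level was −0.15 to 1.55 in AIM-/- and −0.05 to 1.57 in AIM+/+. The lists share genes: Csf1r is in the monocyte and Kupffer cell lists, and Lyz1 in the monocyte and granule lists. All 5 hepatocyte genes were lower too (median −0.19; 6.97 to 7.86 in AIM-/- and 7.11 to 7.84 in AIM+/+). For blood, the red cell genes Hba-a1 and Hbb-bt differed by 0.00 ± 0.14 and 0.02 ± 0.11, and the list of 6 had a median of 0.01. The platelet gene Pf4 of that list was higher in AIM-/- in all 4 weeks, by 0.33 ± 0.11 over weeks.

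The members' profiles across the 8 arrays were compared with the mean of S100a8 and S100a9, as a description over arrays that share genotype, week and slide. S100a8 and S100a9 followed each other with r = 0.94 (Spearman's rho = 0.93), and with r = 0.86 once each genotype's mean was removed. Among 15336 other genes, Csf3r ranked 3rd by likeness (r = 0.95), below Gnb5 (r = 0.97, above background on only 2 of 8 arrays) and Lilra6 (r = 0.97) and beside Trmt44 (r = 0.95) and Emx1 (r = 0.93). Trmt44 and Emx1 were dim too, at 32.7 to 54.1 and 37.5 to 83.2, each above background on 7 of 8 arrays. With normexp background correction the r of Csf3r was 0.70. Csf3r kept r = 0.88 with genotype means removed, where it ranked 338th, and 0.92 without the 20-week arrays. Fpr1 ranked 39th (r = 0.85, rho = 0.76), with r = 0.90 after removing the means and 0.74 without 20 weeks. Retnlg ranked 973rd (r = 0.57), and its r was 0.27 without the 20-week arrays, so that its likeness rested on them. The arrays thus fell in nearly the same order for Csf3r (rho = 0.93) as for calprotectin, with Csf3r signals spanning only 40.1 to 61.7.

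**Figure D3:**
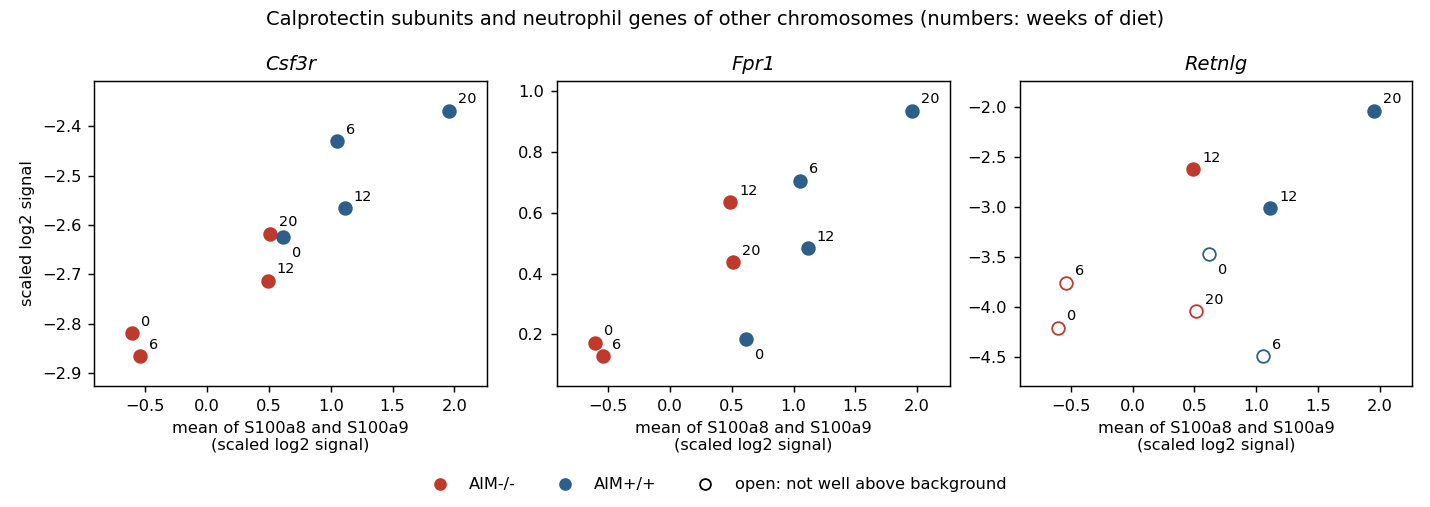
Scaled log2 signal of Csf3r, Fpr1 and Retnlg against the mean scaled log2 signal of S100a8 and S100a9 on the 8 arrays, AIM-/- in red and AIM+/+ in blue, each point labelled with its week and open where not well above background. Csf3r and Fpr1 climb with calprotectin (r = 0.95 and 0.85), and Retnlg does so less closely (r = 0.57).

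On the diet, the members' levels were compared with chow over both genotypes (mean of 6, 12 and 20 weeks minus 0 weeks), a contrast that did not choose them. Diet cannot be told apart from age, since chow was sampled only at 0 weeks. Sex is partly tied to diet too: both chow arrays carried Ddx3y with Xist not above background, and both 20-week arrays the reverse. With genotypes and weeks standing in for replicates, a p-value reflects array-to-array spread, not spread between animals. No fitted member passed at an adjusted p of 0.05 in limma (0 of 5), against 2.33% of all genes, 1.54% higher and 0.795% lower. The diet-fed mean of S100a9 was 2.68 and its chow mean 1.69, a difference of 0.98 ± 0.22 (95% interval 0.42 to 1.54, limma adjusted p = 0.0821). Its diet-fed arrays were all above the chow array of their own genotype, by 0.60, 1.43 and 1.58 in AIM-/- and by 0.50, 0.46 and 1.34 in AIM+/+ at 6, 12 and 20 weeks. The adjusted p of S100a9 crossed the threshold under 3 of the alternative settings and ranged from 0.0411 to 0.252 over all of them. The highest came without the 20-week pair, where its difference was 0.745.

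S100a8 differed from chow by 0.54 ± 0.25 (interval −0.10 to 1.17, adjusted p = 0.252). At 6 weeks it lay below chow in AIM-/- (−0.46) and above chow in AIM+/+ (0.37). Differences of the other members from chow were 0.38 ± 0.19 for Fpr1 (adjusted p = 0.277), 0.51 ± 0.56 for Retnlg (adjusted p = 0.594; no chow array measured it above background and no fold can be bounded) and 0.13 ± 0.11 for Csf3r (adjusted p = 0.505). The median over the 5 fitted members, 0.51, is the Retnlg value itself and so rests on dim chow signals. Nothing is read from it beside the −0.02 of all genes. Whether the diet difference itself depended on genotype was fitted as an interaction, and none of the 5 passed (adjusted p = 1 for each). That interaction was 0.43 (interval −1.34 to 2.20) for S100a9 and −0.43 (−2.48 to 1.63) for S100a8, so a wide range of differences remains possible. No gene of all tested passed (percent called 0; 679 at an unadjusted p under 0.05).

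Other neutrophil genes that passed on the diet were 1 of 14 granule genes and 0 of 12 genes of the surface list, with medians of 0.78 and 0.91. Lcn2, lipocalin 2, an iron-carrier-binding protein of granules that hepatocytes also make, rose by 3.82 ± 0.25 (adjusted p = 0.0238). The next largest granule genes were Chil3 (2.15 ± 0.39, adjusted p = 0.0617) and Slpi (1.29 ± 0.42, adjusted p = 0.148). In the surface list, G0s2 gave 2.40 ± 0.51 (limma adjusted p = 0.0764), Clec4e 1.94 ± 0.53 (limma adjusted p = 0.113) and Clec4d 1.93 ± 0.40 (limma adjusted p = 0.074). G0s2 is not a surface protein, its signals ran from 1596 to 19629, and which cells gave them was not tested. Neither chow array measured Clec4e or Clec4d above background, and 3 of 6 diet arrays measured each. Set against the lowest signals well above background on the chow arrays, the diet mean of Clec4d was 1.34-fold higher, and Clec4e had no such fold. That diet mean takes dim diet arrays as read, so the fold is not a strict lower bound.

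Genes of granulocyte production, neutrophil-attracting chemokines and the members' partners gave no call on the diet: 0 of 8, 0 of 4 and 0 of 8 measured genes passed. Among factors of granulocyte production, Cebpd had 0.86 ± 0.44 (adjusted p = 0.289), Cebpb 0.37 ± 0.24 and Socs3 0.27 ± 0.59. Among chemokines, Ppbp had 0.76 ± 0.35, Cxcl1 0.41 ± 0.70 and Cxcl12 −0.32 ± 0.20. Among partners, Mmp2 had 1.44 ± 0.57, Cd14, a co-receptor of Toll-like receptor 4, 1.34 ± 0.36, and Retn 1.05 ± 0.52. Mmp2 and Retn were above background on 3 of 6 diet arrays and no chow array. Set against the chow arrays in the way used for Clec4d, with the same limit, Mmp2 was 1.1-fold higher and Retn had no such fold.

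In the S100 cluster, 2 of 8 genes passed, both higher on the diet, against 1.54% of all genes. They were S100a4 by 1.91 ± 0.28 (adjusted p = 0.0493) and S100a6 by 1.60 ± 0.21 (adjusted p = 0.0467). S100a11 gave 2.24 ± 0.56 (adjusted p = 0.0984). Monocyte markers moved on the same contrast, and their part in the calprotectin values was not tested. There 2 of 8 passed as higher, against 1.54% of all genes. Ly6c rose by 2.62 ± 0.24 (limma adjusted p = 0.0289). Ccr2 gave 2.10 ± 0.24 (limma adjusted p = 0.0393), a value that rests on dim chow signals. Chil1 gave 1.85 ± 0.30 (limma adjusted p = 0.0548). Ccr2 and Chil1 were each above background on 4 of 6 diet arrays and no chow array. Set against the chow arrays in the way used for Clec4d, with the same limit, they were 1.12-fold and 2.08-fold higher. Of 6 blood genes, Pf4 of platelets rose by 0.96 ± 0.12 (adjusted p = 0.0463) and Alas2, the erythroid enzyme of haem synthesis, fell by 1.37 ± 0.16 (adjusted p = 0.041). No Kupffer cell or hepatocyte gene passed (0 of 11 and 0 of 5; medians 0.43 and −0.25). Without the 12-week or the 20-week pair of arrays no gene of all passed on the diet, so each of these calls needs both pairs.

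**Figure D4:**
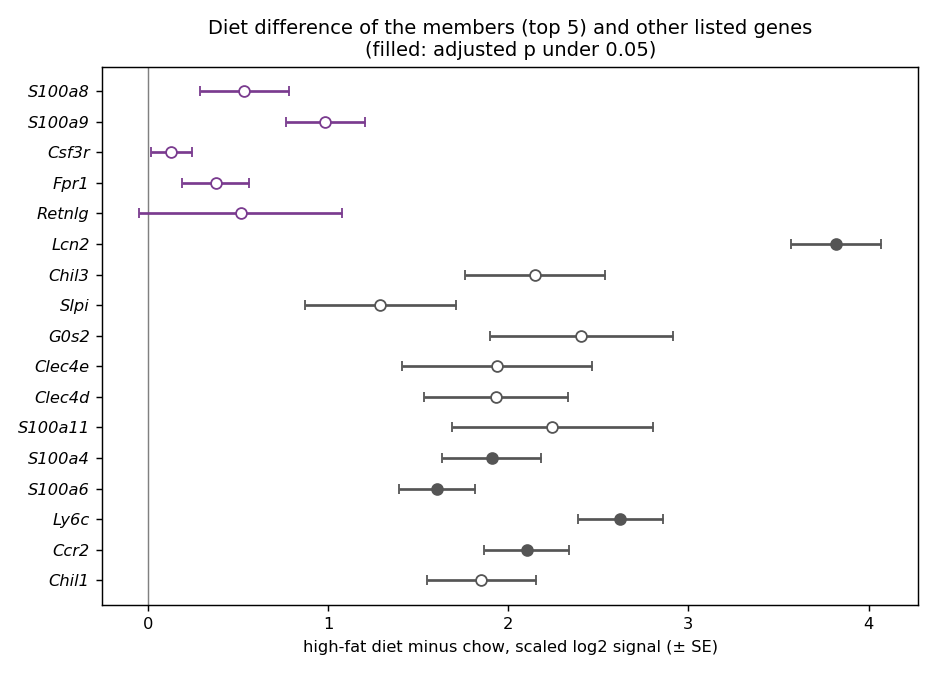
High-fat diet minus chow in scaled log2 signal with its SE for the 5 fitted members (top) and, below, the 3 genes with the largest absolute difference in the granule, surface, S100 and monocyte lists. Filled symbols passed at an adjusted p of 0.05. None of the members is filled, and Lcn2, S100a4, S100a6, Ly6c and Ccr2 are. Retnlg, Clec4e, Clec4d, Ccr2 and Chil1 were above background on no chow array.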

How the data were processed

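Liver RNA was hybridised to 8 one-colour Agilent arrays. The authors' processed signal intensity of each spot came from Feature Extraction 9.5 (per the submitters' processing notes); version 9.5.3.1, protocol GE1-v5_95_Feb07 and mm8 coordinates come per the file headers. The deposited value table holds log2 values, which differed from the ones computed here by 0.00151 in the median and 0.534 at most, and served as an alternative.

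The 1639 control spots and 75 to 130 outlier spots per array were dropped. Replicate spots were averaged within a probe, and the 75th percentile of an array was subtracted from its log2 signals. Probes well above background on at least 2 of 8 arrays were kept, and the brightest probe stood for a gene (15342 genes). RefSeq symbols matched 24375 probes, while 16799 kept the file's name. Diet and genotype were fitted with limma 3.58.1 in R 4.3.3 (week as a factor plus genotype, 3 residual degrees of freedom) and the interaction with a model of 4 cells (4 residual degrees of freedom), with Benjamini-Hochberg adjustment over all genes. The fits were tested on simulated data. The number of arrays limits the precision, and weeks or genotypes stand in for replicates. Members, lists and tests were chosen with earlier results of these data known. Named genes were all members, the genes of each other list that passed for diet and up to 3 with the largest absolute diet difference, up to 3 neighbours of S100a8 with the largest genotype difference, and the 5 genes most like calprotectin. Outside that rule, Cd163, Marco, Timd4, Vsig4, Il1b, Ctsg, Mrgpra2b, Hba-a1 and Hbb-bt, the other genes lower in all 4 weeks, and the undetected neutrophil markers were named after their values were seen. Background correction, scaling, probe filters, the variance model and leaving out each week were varied.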

Additional observations from a re-analysis of the deposited data

How the results depend on the processing

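Across 257 alternative values, 232 were counted as the same, 20 as moved, 3 crossed the threshold and 2 changed sign. Same meant an unchanged direction and call for a member's diet and interaction fits. For gene counts, genotype differences and correlations it meant closeness in size, so a moved value may have kept its direction. The diet count of 358 genes became 693 with normexp background correction, 232 with quantile normalization, 27 without a filter on dim probes, 905 with probes above background on all 8 arrays and 1047 with a variance trend. It was 0 without the 12-week pair (2529 at an unadjusted p under 0.05) and 0 without the 20-week pair (2929), by limma. The interaction count of 0 became 111 without a filter. The genotype count of 5 became 3 with probes above background on all arrays, and 1 without the 0-, 6-, 12- or 20-week pair each. The cause was not tested, beyond fewer arrays or other genes entering those fits. The Retnlg interaction turned to −0.078 without the 6-week pair and its genotype difference to 0.13 without the 20-week pair. S100a9 passed for diet with normexp (0.95, adjusted p = 0.0471), with probes above background on all arrays (adjusted p = 0.0425) and with a variance trend (adjusted p = 0.0411). The genotype difference stayed between −1.34 and −0.73 for S100a8 and between −1.49 and −1.17 for S100a9 under every setting run. The −0.73 of S100a8 came with normexp and was counted as moved. With normexp, Csf3r followed calprotectin less closely (r = 0.70). One setting, leaving out spots with a background outlier mark too, was added after seeing the data. The genotype and diet fits already pair the arrays by week. A block on replicate number could not be added, since all 8 arrays carry the same number. Signals near background limit Ngp, Camp, Mmp8, Mmp9, Cxcr2 and Retnlg. Csf3r, well above background on all 8 arrays, was also dim, at 40.1 to 61.7. S100a8 came near that range in AIM-/-, at 65.8 on chow and 50.9 at 6 weeks.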
